A study of Homo sapiens with 3 samples.

Results

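The regions described here are 1579 peaks of p300/CBP that were narrow in MDA-MB-231 cells given a control siRNA and wide in cells depleted of Fra-1. They were chosen by the peak widths in both deposited lists: a member is a siFra-1 peak of 250 bp or more, on chromosomes 1 to 22 or X, that shares at least 1 bp with a siCTL peak and whose overlapping siCTL peaks are all under 250 bp. They were 4.03% of the 39167 siFra-1 peaks on these chromosomes and 26.5% of the 5968 siFra-1 peaks of 250 bp or more. MDA-MB-231 is an established human line from a triple-negative breast tumour, and the question behind the series was how the Fra-1 level bears on where p300/CBP sits on chromatin. In one condition cells received 4.5 nM of a negative control siRNA (siCTL), and in the other 4.5 nM of a mixture of siRNAs against Fra-1 (siFra-1); both were fixed after 72 h, for 7 min, before ChIP with an antibody to p300/CBP. An input sample is not analysed here. Each condition is 1 library, into which replicate immunoprecipitations had been pooled, so there is no replicate check on any difference between siCTL and siFra-1 and no p-value is given. The lists hold positions and no heights, the depth behind them is unknown, and they carry no measure of RNA or protein by which the depletion of Fra-1 could be checked.

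Fra-1, the product of FOSL1, belongs to the Fos proteins and binds DNA as a dimer with a Jun protein; the dimer is called AP-1, and it recognises the TRE, or AP-1 motif. p300 and CBP are closely related lysine acetyltransferases that bind no particular DNA sequence themselves and are brought to enhancers and promoters by transcription factors, where they acetylate histones. TEAD proteins, the DNA-binding partners of YAP and TAZ in the Hippo pathway, RUNX proteins and C/EBP proteins share many enhancers with AP-1 in epithelial and mesenchymal cells. Proteins of the FOX family bind the forkhead motif, and some of them can engage compacted chromatin.

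9 members are shown by the central 200 bp of their siFra-1 peak, because the motif content of these regions is compared with that of other wide peaks in the results that follow. Each is the plus strand of GRCh37 (hg19), 5′ to 3′, in lower case, with capitals on the motif it is shown for, in either orientation. The first 3 are among the members with the largest gain in width that hold an AP-1 motif (TGACTCA), and they lay in an intron of SYN2, between genes nearest to KIF18A, and between genes at -2.83 kb from the transcription start site (TSS) of LAMA5.
chr3:12219677-12219876: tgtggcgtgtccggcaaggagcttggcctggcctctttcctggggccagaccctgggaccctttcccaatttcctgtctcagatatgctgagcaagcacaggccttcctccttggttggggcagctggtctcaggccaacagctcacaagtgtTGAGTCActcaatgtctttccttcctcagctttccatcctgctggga
chr11:27948552-27948751: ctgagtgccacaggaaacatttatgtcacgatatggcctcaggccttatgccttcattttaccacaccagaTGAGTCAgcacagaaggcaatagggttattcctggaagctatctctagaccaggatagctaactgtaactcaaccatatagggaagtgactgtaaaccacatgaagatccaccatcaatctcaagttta
chr20:60945102-60945301: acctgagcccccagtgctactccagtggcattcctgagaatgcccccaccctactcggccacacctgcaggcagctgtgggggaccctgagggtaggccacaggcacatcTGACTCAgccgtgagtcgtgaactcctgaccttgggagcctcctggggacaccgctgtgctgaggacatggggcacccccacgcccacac
Members with a TEAD motif (GGAATG) and no AP-1 motif are next. The first of them lay between genes beside the centromere of chromosome 2, the next at exons of U2AF2 and of overlapping non-coding genes, and the last in an intron of CLPTM1L, where the motif recurred 5 times in these 200 bp.
chr2:92310352-92310551: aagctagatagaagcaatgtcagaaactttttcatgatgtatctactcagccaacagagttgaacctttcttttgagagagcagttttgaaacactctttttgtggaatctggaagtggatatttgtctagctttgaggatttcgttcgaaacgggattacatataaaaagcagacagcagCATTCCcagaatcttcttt
chr19:56181927-56182126: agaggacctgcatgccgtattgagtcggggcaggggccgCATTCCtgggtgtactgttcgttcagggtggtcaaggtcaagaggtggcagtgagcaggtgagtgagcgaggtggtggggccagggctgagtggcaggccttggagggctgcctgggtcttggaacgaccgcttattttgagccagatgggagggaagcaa
chr5:1327427-1327626: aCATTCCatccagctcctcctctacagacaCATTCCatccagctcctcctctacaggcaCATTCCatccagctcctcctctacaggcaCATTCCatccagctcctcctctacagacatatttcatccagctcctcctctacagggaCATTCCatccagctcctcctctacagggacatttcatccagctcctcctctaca
Members with a RUNX motif (TGTGGT) and neither of the others in these 200 bp lay in introns of MSRB3-AS1 and BBC3 and in an exon of the non-coding gene LINC02977.
chr12:65927102-65927301: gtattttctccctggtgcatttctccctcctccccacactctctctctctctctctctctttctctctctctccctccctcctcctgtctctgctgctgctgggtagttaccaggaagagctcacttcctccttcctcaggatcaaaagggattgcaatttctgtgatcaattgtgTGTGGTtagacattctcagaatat
chr19:47730852-47731051: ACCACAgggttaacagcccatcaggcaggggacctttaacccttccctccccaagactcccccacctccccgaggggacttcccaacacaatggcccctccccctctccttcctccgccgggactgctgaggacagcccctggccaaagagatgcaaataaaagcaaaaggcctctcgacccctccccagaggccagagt
chr9:114799877-114800076: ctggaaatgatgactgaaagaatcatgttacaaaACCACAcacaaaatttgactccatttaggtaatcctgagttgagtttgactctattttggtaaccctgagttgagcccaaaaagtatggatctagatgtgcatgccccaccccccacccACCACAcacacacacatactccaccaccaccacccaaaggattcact

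Before the results, a group of members that stood apart has to be named. 206 of the 1579 members (13.0%; 95% Wilson interval 11.5 to 14.8%) lay wholly or partly within 1 Mb of an assembly gap of 1 Mb or more, such as those at centromeres. That was more than among peaks wide in both lists (6.63%; difference 6.41 points, 4.52 to 8.39) and among wide siFra-1 peaks that no siCTL peak overlapped (4.15%; difference 8.89 points, 7.03 to 10.8). These members crowded together. When members with centres at most 50 kb apart were chained, 14 of the 19 stretches with 5 or more members were beside such gaps, and so were the 5 with the most members: 21 in chr2:92272802-92326151, 21 in chr4:49093752-49157051, 17 in chr5:49405702-49441101, 16 in chr10:42356052-42399551 and 13 in chr17:22245452-22261701. The TEAD letters recurred up to 73 times in a single member there (chr4:49156402-49157051), and only 1 of the 206 held an AP-1 motif in its central 200 bp. Whether repeated sequence there bears on the peaks was not tested, and values are given for all members and for the 1373 members away from large gaps.

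The siCTL peak was usually much narrower than the siFra-1 peak and lay inside it, though often not at its middle. These widths chose the members, so they are a description. The siFra-1 width had a median of 350 bp (quartiles 300 and 450 bp) and ran from 250 to 1350 bp, whereas the summed width of the siCTL peaks under it had a median of 150 bp (100 to 550 bp). 1286 members covered 1 siCTL peak, 276 covered 2 and 17 covered 3. The widest of these siCTL peaks was of 100 bp, the smallest width in the lists, for 672 members, of 150 bp for 530 and of 200 bp for 377. The median gain in width was 200 bp (quartiles 150 and 300 bp), and in 1112 members (70.4%) the siFra-1 width was at least 2 times the summed siCTL width. In 29 members the summed siCTL width was as large as the siFra-1 width or larger, since several siCTL peaks had been joined or overhung the edge. The siCTL peaks lay wholly inside the siFra-1 peak in 1293 members (81.9%), and the centres of the siCTL and siFra-1 regions were a median of 50 bp apart. Bases were added on both sides in 829 members and on one side in 679. Of the 628 kb of sequence in the members, 238.5 kb (38.0%) was under siCTL peaks and 389.45 kb only under siFra-1 peaks.

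**Figure D1:**
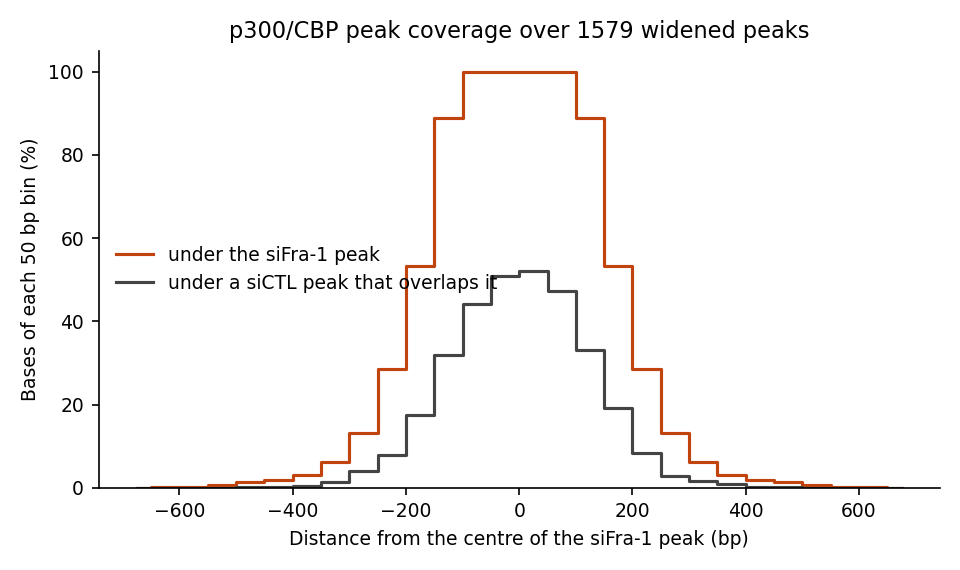
Share of bases in 50 bp bins that lay under the siFra-1 peak and under an overlapping siCTL peak, over the 1579 members, by distance from the centre of the siFra-1 peak in bp. At the centre 50.8% and 52.2% of the bases of the bins on either side were under a siCTL peak, and the siCTL share fell off on both sides within the span of the siFra-1 peaks.

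Many members lay close to the thresholds. 355 members were of exactly 250 bp, and 455 siFra-1 peaks of 200 bp with only narrow siCTL peaks were just outside. 377 members had a widest siCTL peak of 200 bp, while 392 wide siFra-1 peaks were left out because theirs was of 250 bp. Both edges met in 77 members, which were of 250 bp with a siCTL peak of 200 bp and so differed by a single 50 bp bin of the authors' signal. Seen from the siCTL list, 1889 of its 79118 narrow peaks (2.39%) took part in a member, made up of 1.33% of the 100 bp peaks, 7.38% of the 150 bp peaks and 18.4% of the 200 bp peaks. With the lists exchanged, the same rule chose 579 narrowed siCTL peaks, 15.9% of the 3644 siCTL peaks of 250 bp or more. There were thus 2.73 widened peaks for each narrowed one, and 1.64 wide siFra-1 peaks for each wide siCTL peak in the lists as a whole. Away from large gaps the first ratio was 2.60, and it was 1.86 when peaks within 500 bp were first merged.

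The members with the largest gains were long, isolated regions and regions beside centromeres. An intronic member of ARSG, which encodes a lysosomal sulfatase (chr17:66374052-66375351), was 1300 bp wide over 2 siCTL peaks of 100 bp. One in an intron of the antisense gene MSRB3-AS1 (chr12:65926602-65927801) was 1200 bp wide over a single siCTL peak of 100 bp, and one in an intron of GLDN, which encodes gliomedin (chr15:51659002-51660051), was 1050 bp wide over a single siCTL peak of 100 bp. The other 3 of the 6 largest gains were next to gaps, namely chr6:58778252-58779601 (1350 bp over a summed 350 bp), chr2:92309902-92311001 (1100 bp over 150 bp) and chr6:58776952-58778001 (1050 bp over 150 bp). None of the 6 lay in a promoter window.

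AP-1 motifs were common in the members, but less so than in peaks wide in both lists and in narrowed peaks. Sequence was not used to choose the members. In the central 200 bp an AP-1 motif was present in 326 members (20.6%; Wilson interval 18.7 to 22.7%), against 3.13% of windows of the same length moved by 2 kb to either side and 9.10% of all siFra-1 peaks. Peaks wide in both lists held it in 32.4%, which was more by 11.8 points (Newcombe interval of the difference, widened minus wide in both, -14.5 to -9.05). The narrowed siCTL peaks held it in 32.1% (difference -11.5 points, -15.8 to -7.26). Wide siFra-1 peaks without a siCTL overlap held it in 12.6%, less than the members by 8.08 points (5.60 to 10.6). Wide siCTL peaks without a siFra-1 overlap held it in 25.8% (22.3 to 29.6%), and away from large gaps in 26.7% (23.1 to 30.7%), an interval that overlapped that of the members there (21.5 to 26.0%). Away from large gaps the share of members was 23.7%, and the differences from peaks wide in both, narrowed and siFra-1-only wide peaks were -10.7, -11.4 and 10.6 points. Weighting the peaks wide in both to the widths of the members left a difference of -13.7 points. The intervals cover counting error over peaks in 1 library per condition, and neighbouring peaks are not independent.

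FOX and C/EBP motifs ran the other way. A FOX motif (TGTTTAC) was present in 153 members (9.69%), against 2.47% of moved windows, 4.32% of narrowed peaks, 7.04% of peaks wide in both and 11.9% of siFra-1-only wide peaks. The members exceeded peaks wide in both by 2.65 points (0.919 to 4.47) for all members and by 3.47 points (1.56 to 5.50) away from large gaps, where the difference from siFra-1-only wide peaks was -1.36 points (-3.58 to 0.904). In the whole peak rather than its centre the difference from peaks wide in both was 0.581 points (-1.49 to 2.73). A C/EBP motif (TTGCNNAA) was present in 15.1% of members, against 8.83% of moved windows, 9.84% of narrowed peaks, 12.5% of peaks wide in both and 17.0% of siFra-1-only wide peaks. Its difference from peaks wide in both was 2.61 points (0.449 to 4.83), which became 1.85 points (-0.567 to 4.27) after weighting for width and -1.93 points (-4.61 to 0.807) in the whole peak.

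**Figure D2:**
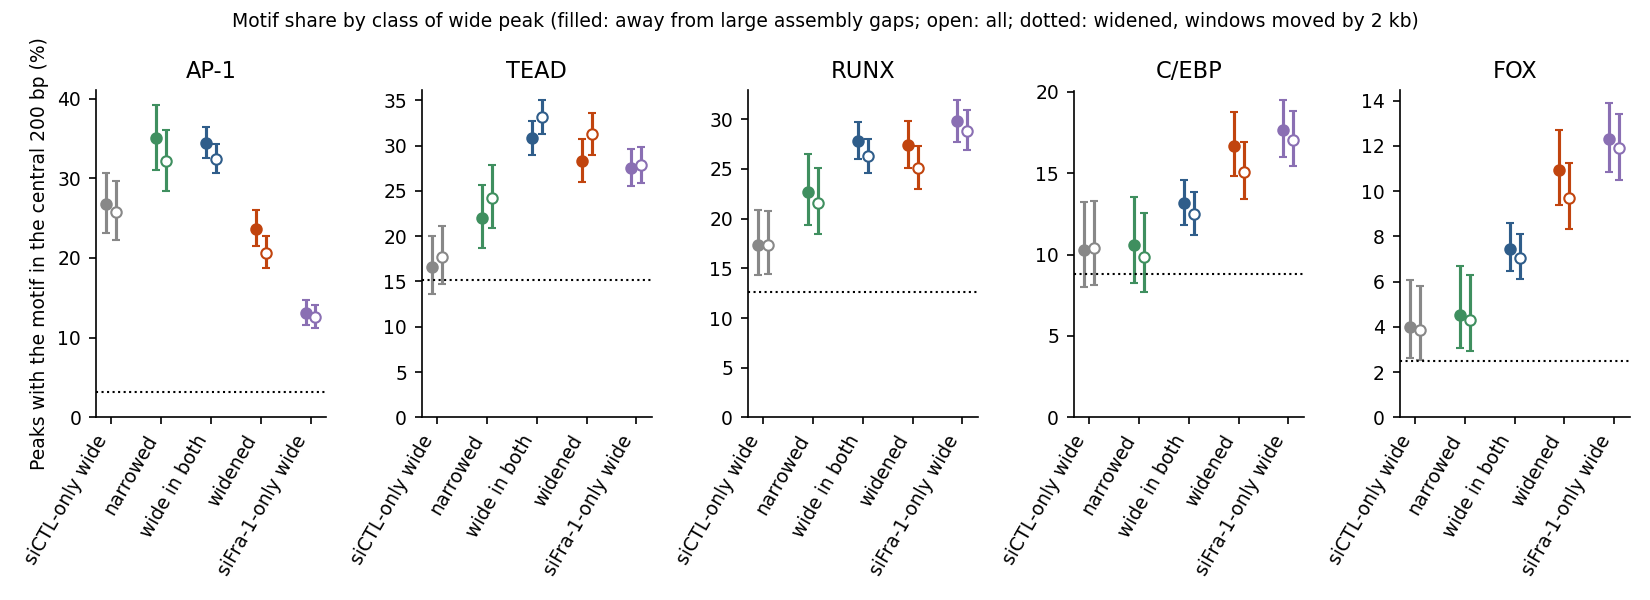
Share of peaks (%) with each of 5 motifs in the central 200 bp, for 5 classes of peak of 250 bp or more, with 95% Wilson intervals. Filled points leave out peaks within 1 Mb of a large gap, and open points hold all peaks. The dotted line is the share in windows moved by 2 kb from all widened peaks, those near large gaps included. AP-1 was at 26.7, 35.0, 34.4, 23.7 and 13.1% in siCTL-only wide, narrowed, wide in both, widened and siFra-1-only wide peaks away from large gaps, and FOX at 4.01, 4.55, 7.45, 10.9 and 12.3%.

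For TEAD and RUNX motifs the interval of the difference from peaks wide in both held 0 in the central 200 bp, but not over the whole peak. A TEAD motif was found in 493 members (31.2%), against 15.1% of moved windows and 33.1% of peaks wide in both (difference -1.91 points, -4.83 to 1.05). In members beside large gaps it was found in 50.5%, and away from them in 28.3%. A RUNX motif was found in 396 members (25.1%), against 12.6% of moved windows and 26.3% of peaks wide in both (difference -1.18 points, -3.90 to 1.60). Over the whole peak the differences were -8.28 points (-11.4 to -5.13) for TEAD and -6.63 points (-9.67 to -3.54) for RUNX, and in 400 bp the TEAD difference was -3.45 points (-6.57 to -0.312). Peaks wide in both had a median siFra-1 width of 450 bp, against 350 bp in members. Whether width bears on the whole-peak differences was not tested. Against narrowed peaks the TEAD difference was 7.04 points (2.76 to 11.1) for all members and 6.36 points (1.97 to 10.5) away from large gaps. The RUNX difference was 3.49 points (-0.607 to 7.34) for all members, an interval that held 0, and 4.66 points (0.250 to 8.81) away from large gaps. A STAT motif (TTCNNNGAA) was held by 14.3% of all members, against 9.88% of windows moved from all members. It was held by 47.6% of members beside gaps and by 9.32% of the rest, for which moved windows were not computed separately. Of 16 motifs compared away from large gaps, 2 were more frequent in members than in peaks wide in both (C/EBP and FOX) and 2 less (AP-1 and CTCF). The CTCF letters (AGNGGGCGC), an approximation of a long motif, were in 0 of the 1579 members (Wilson upper bound 0.243%) and in 8 of the 2487 peaks wide in both.

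Many members held none of the 3 leading motifs. Neither AP-1, TEAD nor RUNX was present in 600 members (38.0%; 35.6 to 40.4%), against 30.6% of peaks wide in both and 43.5% of siFra-1-only wide peaks. TEAD or RUNX without AP-1 was present in 41.4%. TEAD motifs were less frequent in members with an AP-1 motif than in members without one, at 23% (18.8 to 27.9%) against 33.4% (30.8 to 36.0%), and at 22.8% (18.5 to 27.6%) against 30.1% (27.4 to 32.9%) away from large gaps. Peaks wide in both ran the same way, at 25.0% against 37.0%. So did narrowed peaks (17.2% against 27.5%) and siFra-1-only wide peaks (24.3% against 28.3%).

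Members of 500 bp or more had the lowest AP-1 share. Away from large gaps the AP-1 share was 27.7% (22.8 to 33.1%) in members of 250 bp, 25.5% in those of 300 or 350 bp, 25.1% (20.7 to 30.1%) in those of 400 or 450 bp and 16.4% (12.8 to 20.8%) in those of 500 bp or more. By the widest siCTL peak it was 20.6% (17.5 to 24%) over siCTL peaks of 100 bp, 26.6% over those of 150 bp and 25.3% (20.9 to 30.3%) over those of 200 bp, with intervals that overlapped. The FOX share was lowest in members of 250 bp, at 7.27% (4.80 to 10.9%), and 12, 13.6 and 10.0% in the wider groups, with intervals that overlapped.

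AP-1 motifs lay near the centre of the members. Away from large gaps their density was 1.60 and 1.38 per kb in the 50 bp bins on either side of the centre, and 0.291 per kb in the bin 575 bp to the right. The same central bins held 2.60 and 2.30 per kb in peaks wide in both and 0.691 and 0.976 per kb in siFra-1-only wide peaks. For FOX the central bins held 0.757 and 0.699 per kb in members, 0.474 and 0.457 in peaks wide in both and 0.746 and 0.867 in siFra-1-only wide peaks.

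**Figure D3:**
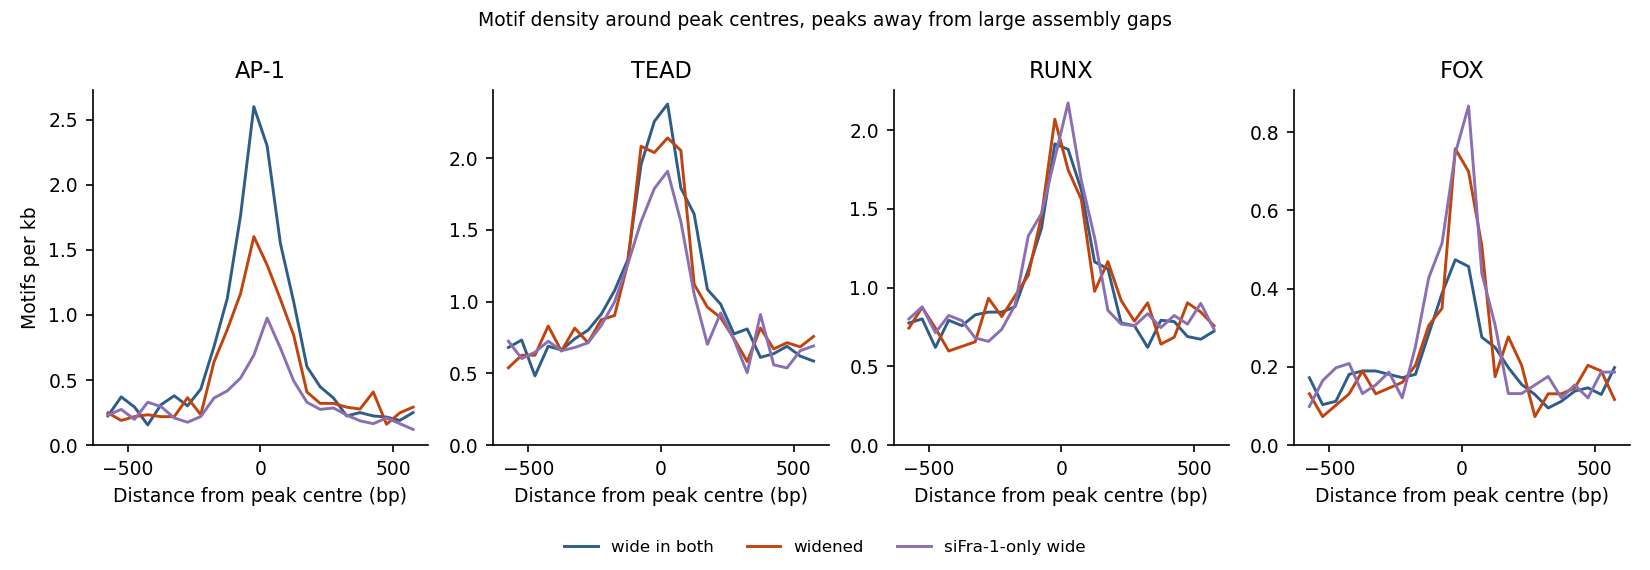
Motifs per kb in 50 bp bins by distance from the centre of the siFra-1 peak, in bp, for members (1373), peaks wide in both (2322) and siFra-1-only wide peaks (1823) away from large gaps. The AP-1 line of the members runs between the other two at the centre, at 1.60 per kb against 2.60 and 0.691, and the FOX line runs near that of siFra-1-only wide peaks, at 0.757 against 0.746.

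The part of a member that was already under a siCTL peak held more AP-1 motifs per kb than the part that was added. There were 258 AP-1 motifs in the 238.5 kb under siCTL peaks (1.08 per kb) and 287 in the 389.45 kb of added sequence (0.737 per kb), a ratio of 1.47 (Clopper-Pearson interval 1.24 to 1.74). In peaks wide in both the same ratio was 4.06 (3.32 to 5.01), with 1.41 per kb under siCTL peaks and 0.347 per kb in the added flanks. Because motifs lie near peak centres, position bears on this ratio: within the central 200 bp of the members it was 1.17 (0.948 to 1.45), with 1.24 per kb in the bases under siCTL peaks and 1.06 per kb in the others. In the same window of peaks wide in both it was 2.55 (1.74 to 3.89). Away from large gaps and over the whole peak, the ratio in members was 1.52 for AP-1, 1.44 for TEAD, 1.21 for RUNX, 1.28 for C/EBP and 1.34 for FOX. In the central 200 bp the FOX ratio was 1.02 (0.736 to 1.41). A single member in an exon of the pseudogene AFG3L1P (chr16:90061152-90062001) held 25 AP-1 motifs, and the next, between genes at chr6:862552-862851, held 4. In PRKCE, a protein kinase C gene, an intronic member of 800 bp over a siCTL peak of 150 bp (chr2:46219202-46220001) held 3.

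Members lay mostly in introns and between genes, far from promoters. Exons held the centre of 102 members (6.46%), introns 805 (51.0%) and the space between genes 672 (42.6%). The last share was above that of peaks wide in both by 6.09 points (3.01 to 9.17), but by 1.61 points (-1.51 to 4.78) away from large gaps. A window of 3 kb centred on a protein-coding TSS was touched by 66 members (4.18%) and by 4.18% of peaks wide in both (interval of the difference -1.23 to 1.31 points). Members were a median of 65.2 kb from the closest protein-coding TSS, and 49.0 kb away from large gaps, where it was 48.1 kb for peaks wide in both and 56.8 kb for siFra-1-only wide peaks. GC content of the central 200 bp had a median of 46.5% in members and 48.5% in peaks wide in both. Chromosome 8 had the highest share of wide siFra-1 peaks that were members (110 of 342; 32.2%) and chromosome 6 the lowest (69 of 328; 21.0%). These shares include peaks beside large gaps, where stretches of 11 and of 9 members lay on chromosome 8.

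Counting peaks of all widths, the surroundings of members held more siFra-1 peaks, relative to siCTL peaks, than the lists as a whole. Within 10 kb of a member, and leaving out members and the siCTL peaks under them, there were 2962 siFra-1 and 2910 siCTL peaks, a ratio of 1.02 (0.967 to 1.07). The ratio was 0.473 over the whole lists, 0.860 around peaks wide in both, 0.878 around siFra-1-only wide peaks and 0.852 around narrowed peaks. Away from large gaps it was 0.914 (0.859 to 0.972) around members, and 0.787, 0.809 and 0.648 around the other classes in that order. For neighbours of 150 bp or more it was 1.38 (1.28 to 1.49) around members and 1.39 (1.29 to 1.49) around peaks wide in both, against 0.855 over the whole lists. For neighbours of 250 bp or more it was 1.31 (1.17 to 1.46) around members and 4.16 (3.56 to 4.89) around peaks wide in both. It was 1.52 around siFra-1-only wide peaks, 1.84 around narrowed peaks and 1.64 over the whole lists. Each class left out its own peaks and those under them. Around members these were, by the rule, wide siFra-1 peaks and narrow siCTL peaks. The ratios for wide neighbours therefore cannot be compared between classes or with the whole lists. Another siFra-1 peak of 250 bp or more lay within 10 kb of 48.5% of members, 47.8% of peaks wide in both and 39.1% of siFra-1-only wide peaks.

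Of 20098 protein-coding genes, 2054 (10.2%) had a member within 100 kb of the TSS, 352 (1.75%) had 2 or more, and the most was 6. ZMIZ1, which encodes a transcriptional coregulator related to the PIAS proteins, had these 6. They were of 450, 350, 650, 350, 300 and 250 bp over single siCTL peaks of 100 or 150 bp. Within 100 kb of its TSS, 20 siCTL peaks summed to 3700 bp and 17 siFra-1 peaks to 5300 bp, and 4 further siFra-1 peaks were wide in both, so that the locus was also a wide p300/CBP site in siCTL. 5 members (chr10:80886902-80922951) fell in introns of the gene, one of the 5 stretches with 5 members away from large gaps.

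CDH1, IFIT2 and IFIT3 had 4 members each and no wide siCTL peak. CDH1 encodes E-cadherin, the adhesion protein of epithelial cells. Around it all 4 siFra-1 peaks were members, with widths of 550, 250, 400 and 700 bp, while the 6 siCTL peaks were all of 100 bp and summed to 600 bp. One lay upstream in an intron of CDH3, which encodes P-cadherin, and the others in introns of CDH1 at 7.73, 53.1 and 55.8 kb from the TSS. IFIT2 and IFIT3, neighbouring interferon-induced genes whose products limit translation of foreign RNA, shared their 4 members, of 450, 600, 750 and 650 bp over siCTL peaks of 150, 100, 150 and 150 bp. The centres of all 4 also lay within the annotated span of LIPA. The one of 750 bp lay 0.813 kb inside IFIT3, and those of 450 and 600 bp lay 5.27 and 4.15 kb upstream of IFIT2. The 18 siFra-1 peaks around IFIT2 summed to 4050 bp and the 14 siCTL peaks to 1550 bp, with no siCTL peak over 150 bp. Of all 20098 protein-coding genes, 90 had at least 3 members within 100 kb, and 35 of these had no wide siCTL peak there. Neighbouring genes can share members, as IFIT2 and IFIT3 do, so these counts are of genes and not of separate loci.

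PTK2, ADGRF1 and PTPN1 had 5 members each, all with centres between genes and upstream of the TSS. The nearest to PTK2, of 300 bp, was centred at -0.137 kb and overlapped that TSS. PTK2 encodes focal adhesion kinase, ADGRF1 an adhesion G protein-coupled receptor and PTPN1 the tyrosine phosphatase PTP1B. The widest members were of 900 bp at PTK2, 750 bp at ADGRF1 and 600 bp at PTPN1, each over a single siCTL peak of 100 bp. GRAPL, which encodes a GRB2-related adaptor-like protein, and AC007952.1 beside it shared 5 members, at a locus with 6 peaks wide in both. GRAPL has a close paralogue, and how reads were shared between such copies was not tested. ITGB2, which encodes the beta-2 integrin subunit of leukocytes, had 4 members in its introns, each over 1 siCTL peak of 100 bp, beside 8 peaks wide in both.

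**Figure D4:**
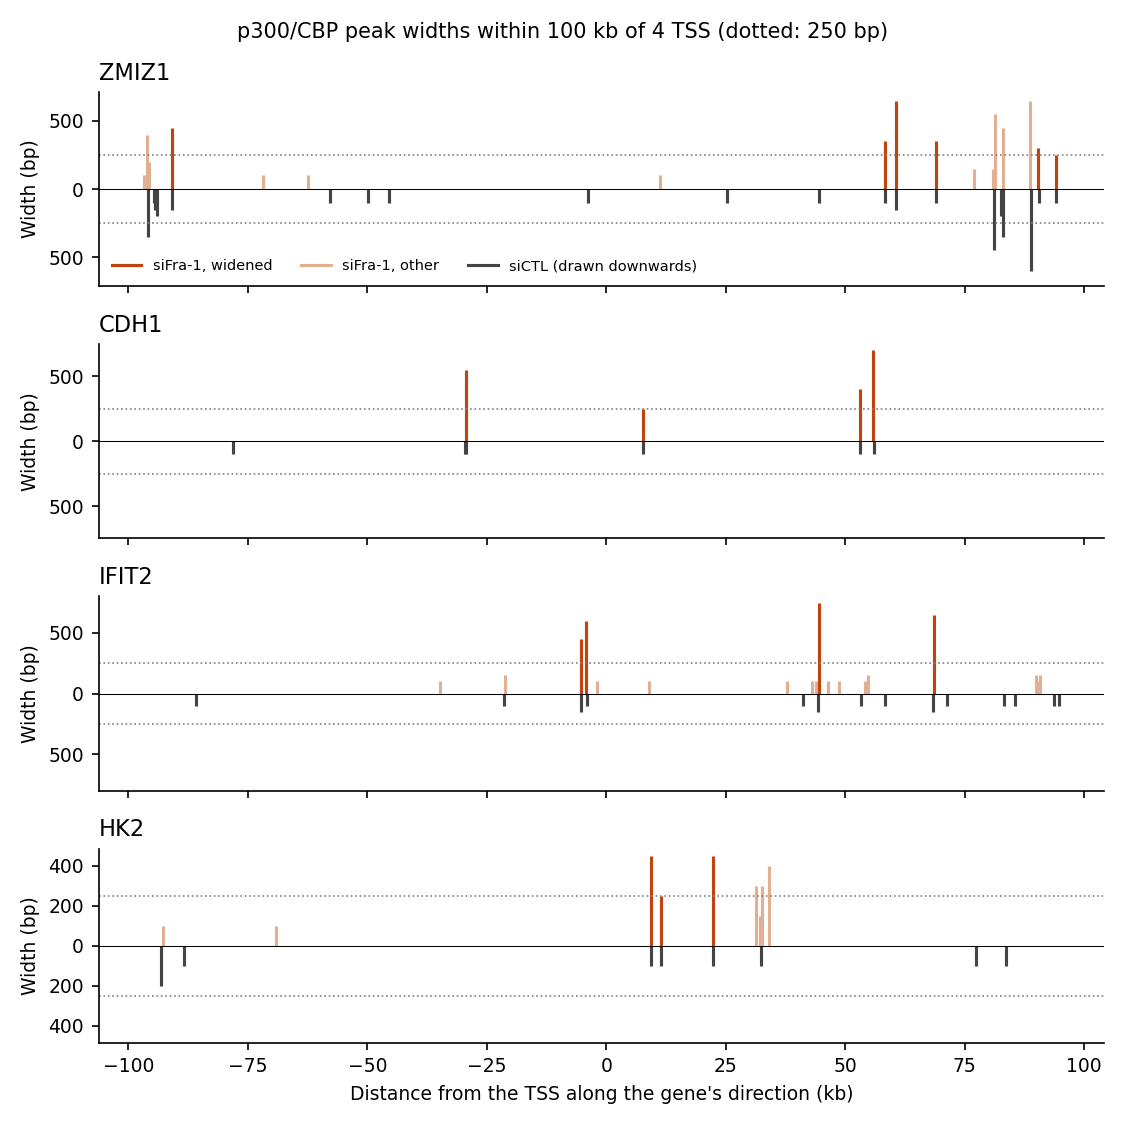
Widths in bp of all p300/CBP peaks within 100 kb of the TSS of ZMIZ1, CDH1, IFIT2 and HK2, by distance from the TSS along the gene in kb. siFra-1 peaks are drawn upwards (members dark, others light) and siCTL peaks downwards, with dotted lines at 250 bp. At CDH1, IFIT2 and HK2 no siCTL peak reached 250 bp, while 4, 4 and 6 siFra-1 peaks did.

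Genes linked to Fra-1 by the study were next. The study had examined the promoters of 34 genes as viewpoints of chromosome contacts in these cells, partly because they responded to Fra-1, so these lists are not independent of Fra-1. Of 9 viewpoints that Fra-1 raised and that contacted a Fra-1-bound region, 4 had a member within 100 kb (44.4%), of 11 that it lowered 3 had one (27.3%), and of the 14 others 5 had one (35.7%), against 10.2% of all protein-coding genes. Members were 25, 13.3 and 26.9% of the wide siFra-1 peaks near these lists, against 25.5% near all protein-coding genes. HK2, which encodes hexokinase 2, the enzyme of the first step of glycolysis, had 3 members, all in its introns at 9.32, 11.4 and 22.3 kb from the TSS. They were of 450, 250 and 450 bp over siCTL peaks of 100 bp. The 9 siFra-1 peaks around HK2 summed to 2500 bp and the 8 siCTL peaks to 900 bp. SMAD6, an inhibitory SMAD of BMP signalling, had 2 members of 400 and 600 bp in its introns and no wide siCTL peak. EMP1, which encodes an epithelial membrane protein, had 2 in introns of its neighbour FAM234B, and FNDC3B had 2 in its own introns. KRT80, a keratin gene, had 1 of 250 bp over a siCTL peak of 150 bp, in an intron of KRT7. FOSL1 itself had no member: its 5 wide siFra-1 peaks were all wide in siCTL too. HEG1, HMGA1, EDN1 and RPSAP52 had none either, although HEG1 and RPSAP52 had 2 and 3 siFra-1-only wide peaks.

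Members were also found near TGF-beta, Hippo and cytokine genes. They were 26.9, 23.5 and 24% of the wide siFra-1 peaks near these lists, against 25.5% near all protein-coding genes. In the TGF-beta pathway 9 of 21 genes had a member (42.9%). The share was 10.2% over all protein-coding genes and 38.3% over those with a wide siFra-1 peak within 100 kb. SMAD3, which carries the TGF-beta signal to the nucleus, had 3, of 450, 350 and 500 bp, each over a summed siCTL width of 200 bp. LTBP3, which holds latent TGF-beta in the matrix, had 3 of 450, 550 and 250 bp, the last at an exon of the non-coding gene MALAT1. Among Hippo effectors and targets 7 of 18 had a member (38.9%), among them YAP1 and TEAD1 themselves. AMOTL2, which encodes an angiomotin that binds YAP, had 2, of 400 and 700 bp. The targets CCN1 and CCN2 had 1 each close to the gene, of 500 bp at -2.24 kb and of 600 bp at -3.44 kb from the TSS. The member at CCN1 was nearer to the TSS of another protein-coding gene, DDAH1, and its centre lay in the 3 kb window centred on that TSS. Which gene this member bears on was not tested. Among cytokines and chemokines 7 of 16 had a member (43.8%). LIF, a cytokine of the IL-6 family, had 2, of 750 and 650 bp over summed siCTL widths of 200 and 150 bp, and CXCL2, CXCL3 and CXCL5 shared 1. At CSF2, the gene of GM-CSF, a member of 500 bp over a siCTL peak of 100 bp was centred at -0.08 kb from the TSS. Several of these loci also had wide siCTL peaks within 100 kb of the TSS. There were 7 each at SMAD3, CCN1 and LIF, 5 at AMOTL2, 2 at LTBP3 and 1 each at CCN2, CXCL2, CXCL3 and CSF2. YAP1, TEAD1 and CXCL5 had none.

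Of the other lists, matrix and integrin genes had a member in 6 of 25 cases, with the divergent pair COL4A1 and COL4A2, which encode type IV collagen chains, sharing 2 in introns of COL4A2. Proteases and the urokinase system had 2 of 16, among them PLAT, the tissue plasminogen activator gene, with 2 members in introns of IKBKB. Mesenchymal factors and markers had 2 of 13, the AP-1 family 3 of 14 (FOSB, JUND and BATF), coactivators and acetylation genes 2 of 17, genes of luminal breast identity 4 of 18 and the RUNX factors 0 of 4. In all lists together 51 of 189 genes had a member and 13 had 2 or more, and the median number per gene was 0 in each list, as over all protein-coding genes. In 12 of the 13 lists the share of genes with a member was above 10.2%.

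The lists differed in how many wide siFra-1 peaks lay near their genes, from 0 for the RUNX factors to 52 for TGF-beta genes. Near protein-coding genes as a whole, 25.5% of the 3774 wide siFra-1 peaks within 100 kb of a TSS were members. The corresponding share was 26.9% (16.8 to 40.3%) near TGF-beta genes, 23.5% (12.4 to 40.0%) near Hippo genes, 24% (11.5 to 43.4%) near cytokine genes, 13.3% (5.31 to 29.7%) near viewpoints that Fra-1 lowered and 40.0% (19.8 to 64.3%) near luminal genes. In each of the 12 lists with a wide siFra-1 peak the interval held 25.5%. Among the 5361 protein-coding genes with a wide siFra-1 peak within 100 kb, 38.3% had a member.

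**Figure D5:**
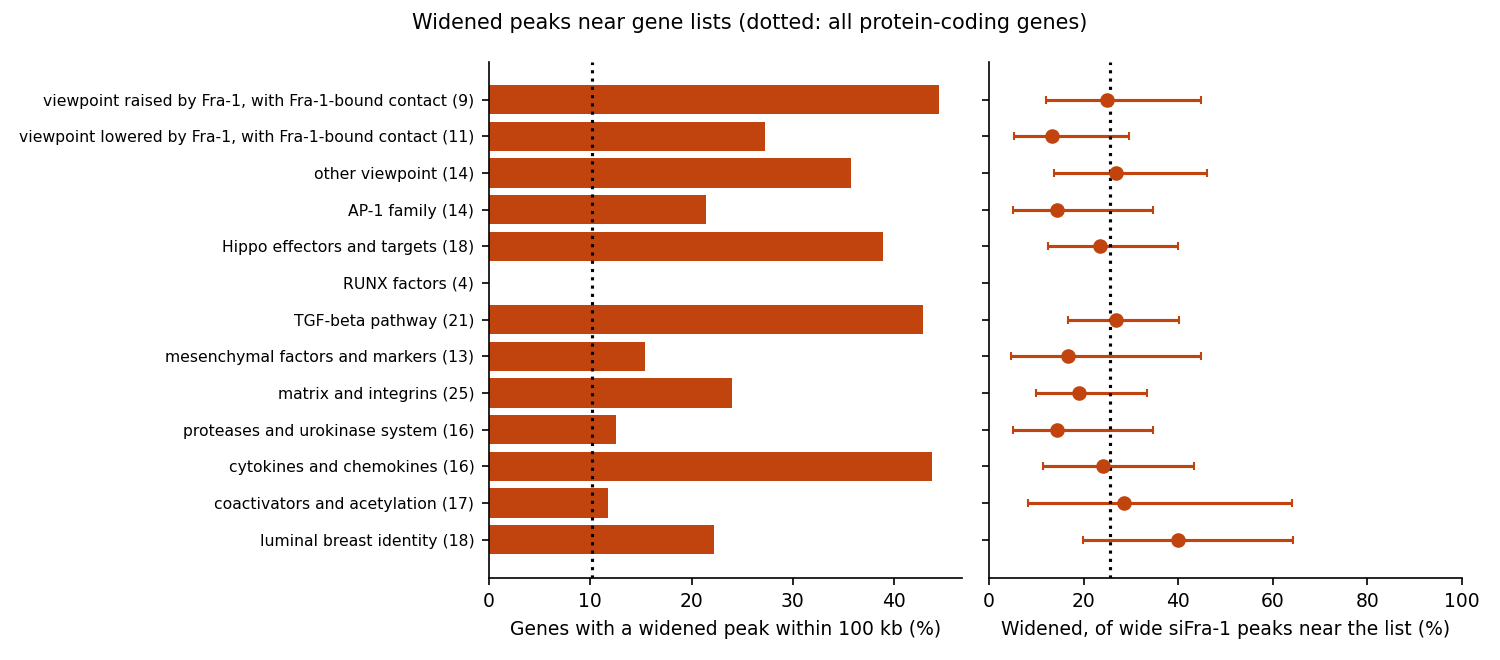
Left, genes of each list with a member within 100 kb of the TSS (%, number of genes in parentheses), with the 10.2% of all protein-coding genes dotted. Right, members as a share of the wide siFra-1 peaks near the list (%, with 95% Wilson intervals), with the 25.5% near all protein-coding genes dotted. Bars reach 44.4% on the left, whereas on the right each interval holds the dotted line.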

How the data were processed

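p300/CBP ChIP-seq was analysed in siCTL and siFra-1 cells. By the methods of the study the authors aligned reads to hg19 with BWA-backtrack (the processing notes name Bowtie2), used PASHA and called peaks by thresholding in the Integrated Genome Browser. The names of the deposited lists give bins of 50 bp, scaling, background subtraction and the thresholding values 25, 50 bp and 50 bp, taken here as threshold, largest gap and shortest run. The deposited lists give chromosome, start and end per peak, and the positions are in bp. Scaling and a fixed threshold can set peak width, so a difference in enrichment or scaling between the libraries and a difference in occupancy cannot be told apart. A processing parameter named with the lists was larger for siFra-1, and its meaning is not given in the sources used here.

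Printed starts are 1 above those in the lists; it is not stated whether the lists count from 0, so they can be 1 bp too high. Overlap (1 bp), motifs on both strands in the central 200 bp, and genes of GENCODE release 44 lifted to GRCh37 were computed in Python 3.11.15 with numpy 2.4.6 and scipy 1.17.1, and drawn with matplotlib 3.10.9. Peak classes and motif matching were checked on simulated data, and overlaps against bedtools 2.31.1. Peak classes were wide in both, siFra-1-only wide, siCTL-only wide and narrowed (the rule with the lists exchanged). With 1 library per condition no test was possible; intervals (Wilson, Newcombe, Clopper-Pearson; 95%) cover counting error only, and depth is unknown.

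The members, motifs and gene lists were chosen with earlier results of these data known. Named were the 6 largest gains, the 5 stretches with most members, the 10 genes with most members, listed genes with 2 or more, 7 genes of the study and the peaks with most AP-1 or TEAD motifs; other names were chosen after the values were seen. The values away from large gaps, where no alternative had been planned, the FOX and C/EBP alternatives and the ratio in the central 200 bp were added after the data were examined. A listed gene and a sequence that the rules would name are not reported here.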

Additional observations from a re-analysis of the deposited data

How the results depend on the processing

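With 1 library per condition, no heights and unknown depth, these results rest on 2 lists of positions, and peaks just under the authors' threshold are absent from them. No paired analysis was possible because each condition is 1 library. The number of widened peaks stayed between 1237 and 1696 under the 6 alternatives run, and the 3 AP-1 differences kept their direction with intervals away from 0 under each of theirs. The TEAD difference from peaks wide in both was -8.28 points over the whole peak, -3.45 points in 400 bp, both with intervals that left out 0, and 0.600 points with the longer motif GGAATGT; the RUNX difference was -6.63 points over the whole peak, also with an interval that left out 0, and 0.459 points with TGTGGTT. Whole peaks are wider among those wide in both, and whether this bears on the whole-peak differences was not tested. The promoter difference was 0.371 points away from large gaps, the C/EBP difference from peaks wide in both was -1.93 points over the whole peak, and the AP-1 ratio between covered and added parts was 1.17 in the central 200 bp. The neighbour ratio was 0.768 within 50 kb, 1.38 for peaks of 150 bp or more and 0.914 away from large gaps, where fewer peaks enter. The share of genes with a member was 5.50% within 50 kb and 23.4% within 250 kb, as smaller or larger windows must give. For the other changes the cause was not tested.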
